A study of Mus musculus with 57 samples.

Results

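The cytosolic ribosomal proteins are the protein parts of the 2 subunits of the ribosome that translates nuclear-encoded messages. Genes were taken as members when their symbol was Rpl or Rps with a number, with or without a closing a, x or l, or was Rplp0, Rplp1, Rplp2 or Rpsa. This gave 64 of the 22180 genes measured with a single symbol, of which 35 encode large-subunit proteins, 22 encode small-subunit proteins and 7 are extra copies whose symbol ends in l. The rule used names and no measured value.

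Gene expression in distal colon and in colon tumors (C57BL/6 mice) was read on 57 Affymetrix arrays, and each gene was taken from its brightest probe set as a log2 level. INSRfl/fl mice carry loxP sites in both alleles of the insulin receptor gene, and villin-CRE-INSR-/- mice (called knockout here) also carry a villin-CRE transgene that inactivates it in the intestinal epithelium and not in muscle, stroma or immune cells. Mice were 18 to 24 weeks old, and the treatment protocol names females. Treated mice were injected once with azoxymethane (AOM, a colon carcinogen) at 7.4 mg/kg and drank 3% dextran sulfate sodium (DSS, which injures the colon epithelium) for 7 days in week 2, and all mice were killed in week 5. The 6 groups were untreated colon of fl/fl mice (n = 10) and of knockout mice (n = 10), colon after AOM and DSS of fl/fl mice (n = 10) and of knockout mice (n = 10), and tumors of AOM- and DSS-treated fl/fl mice (n = 8) and knockout mice (n = 9). Whether tumors and colon samples shared a mouse is not given in the labels.

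Each ribosome needs 1 copy of nearly every one of these proteins, so their genes are usually expressed together, and they are among the most abundant messages of growing cells. Their mRNAs begin with a run of pyrimidines, the terminal oligopyrimidine (TOP) motif, through which mTOR signalling, itself downstream of the insulin receptor, adjusts their translation. The intestinal crypt renews itself continuously and makes ribosomes at a high rate, and colon tumors are known for raised ribosome production.

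The median level per array was 5.92 to 6.04, and arrays correlated with their group at a mean r of 0.976 to 0.988. The lowest r belonged to untreated knockout replicate 2, and the member counts were recomputed without it. Knockout arrays had less Insr than fl/fl arrays, with log2 differences of -0.94 in untreated colon, -0.84 after AOM and DSS and -0.65 in tumors (limma, adjusted p = 6.71e-09, 2.32e-07 and 0.00234), and the probe table does not say which part of the gene its probe set covers. The 12 colonocyte markers averaged 12.04 to 12.23 in the colon groups, against 10.91 in fl/fl and 10.75 in knockout tumors. The 12 smooth muscle markers averaged 11.11 to 11.30 in the colon groups, against 9.64 and 9.51 in tumors. Tumor samples thus held less smooth muscle signal than the colon samples they are compared with. In such bulk samples, fewer cells of a type and less RNA per cell cannot be told apart.

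The members covered the whole range of the array. Rpl21 (mean 13.25 over all arrays), Rps6 (12.95), the target of the S6 kinases, and Rpl28 (12.90) had the brightest probe sets, and Rpl10l (3.89), Rpl32l (4.61) and Rplp2 (4.84) the dimmest. In all, 31 members had a mean above 10, 14 lay from 7 to 10 and 19 lay under 7. Brightness depends partly on the probes, so these levels do not order the transcripts. Spread within groups was smallest for Rpl21 (pooled SD 0.050, n = 57) and largest for Rps15 (0.52), Rpl32l (0.34) and Rps13 (0.29). Many ribosomal protein genes have near-identical processed copies elsewhere in the genome, so signal may be shared with them. The table carried 104 probe sets for the 64 genes, and 40 genes had only 1.

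In colon after AOM and DSS, some of the ribosomal protein genes were lower than in untreated colon, and none was called higher. In fl/fl mice, 14 of 64 members fell (limma, Benjamini-Hochberg adjusted p under 0.05 over all 22180 genes), where 10.5% of all genes fell and 12.2% rose. With every array shifted to 1 median, 6 members fell and Rps7 rose in fl/fl mice, and the shares of all genes after this shift are not given here. In knockout mice 28 of 64 fell, where 14.2% of all genes fell and 16.0% rose. The changes were small: the median over members was -0.08 in fl/fl and -0.14 in knockout mice, against -0.04 over all genes in each. The fall lay mainly among bright probe sets, with 12 of the 31 members above a level of 10 called in fl/fl and 21 of 31 in knockout mice. Of the 1470 genes measured above that level, 12.7% fell in fl/fl and 22.4% in knockout mice.

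Rpl3, which shapes the peptidyl transferase centre, showed the largest called fall in fl/fl mice. Its level in untreated fl/fl colon ran from 10.09 to 10.85 (median 10.32, n = 10) and after AOM and DSS from 9.68 to 10.29 (median 9.96, n = 10). In knockout mice it ran from 9.97 to 10.50 (median 10.37, n = 10) untreated and from 9.68 to 10.19 (median 9.93, n = 10) after treatment. The groups overlapped, but 7 treated fl/fl arrays and 6 treated knockout arrays lay below every untreated array of their genotype. Rpl3 fell by 0.35 (SE 0.08, adjusted p = 0.0014 by limma) and by 0.39 (SE 0.08, adjusted p = 0.000173). Its other probe sets differed: one at a mean level of 8.13 changed by -0.16 in fl/fl and 0.04 in knockout mice, and one at 4.87 by 0.05 and -0.17.

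Rpl38, a small large-subunit protein known for its part in the translation of Hox mRNAs, fell in both genotypes with little spread. Untreated fl/fl arrays ran from 11.70 to 11.93 (median 11.83) and treated ones from 11.43 to 11.89 (median 11.66). Untreated knockout arrays ran from 11.67 to 12.04 (median 11.91) and treated ones from 11.43 to 11.72 (median 11.63). In each genotype 7 of 10 treated arrays lay below all untreated ones. The log2 change was -0.19 (SE 0.04, adjusted p = 0.00141 by limma) in fl/fl and -0.28 (SE 0.04, adjusted p = 1.1e-06) in knockout mice.

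Rps28, a small-subunit protein next to the mRNA exit, went from 10.82 to 11.34 (median 11.18) in untreated fl/fl arrays to 10.36 to 11.22 (median 10.88) in treated ones. In knockout mice it went from 10.75 to 11.43 (median 11.25) to 10.51 to 10.96 (median 10.78). All 10 treated knockout arrays and 9 of 10 treated fl/fl arrays were below the untreated mean. Rps28 fell by 0.31 (SE 0.08, adjusted p = 0.00261 by limma) and 0.39 (SE 0.08, adjusted p = 7.86e-05).

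Altogether 11 members fell in both genotypes, which share no arrays: Rpl3, Rpl7a, Rpl10a, Rpl13, Rpl19, Rpl23a, Rpl27, Rpl38, Rplp1, Rps10 and Rps28. No member was called in opposite directions, and 53 of 64 had the same sign. No share over all genes is given for calls or signs in both genotypes, so these counts only describe the members. Rpl23a, which lies at the exit of the nascent chain, fell by 0.17 (SE 0.06) in fl/fl and 0.33 (SE 0.06) in knockout mice, and Rpl7a by 0.17 (SE 0.05) and 0.21 (SE 0.05). Rps10, a protein of the small-subunit head, fell by 0.17 (SE 0.06) and 0.31 (SE 0.06). Rpl27 fell by 0.18 in each, with an SE of 0.04, but a second probe set of it, at a mean level of 6.35, changed by -0.02 and 0.08. Rps9 and Rpl11 were called only in fl/fl mice at -0.25 (SE 0.06) and -0.30 (SE 0.08), with -0.12 and -0.18 in knockout mice (adjusted p = 0.149 and 0.0841 by limma). A second probe set of Rps9, at a mean level of 9.43, had the larger fall in knockout mice, with -0.28 in fl/fl and -0.38 in knockout mice. Rps18, Rps13 and Rpl37 were called only in knockout mice at -0.45 (SE 0.11), -0.43 (SE 0.13) and -0.31 (SE 0.10), with -0.28, -0.05 and -0.09 in fl/fl mice. Other probe sets of Rps18 differed: one at a mean level of 5.43 changed by -0.23 in fl/fl and -0.07 in knockout mice, and one at 5.36 by 0.02 and -0.03. No genotype difference in the response was called for any of these members, as given below.

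**Figure D1:**
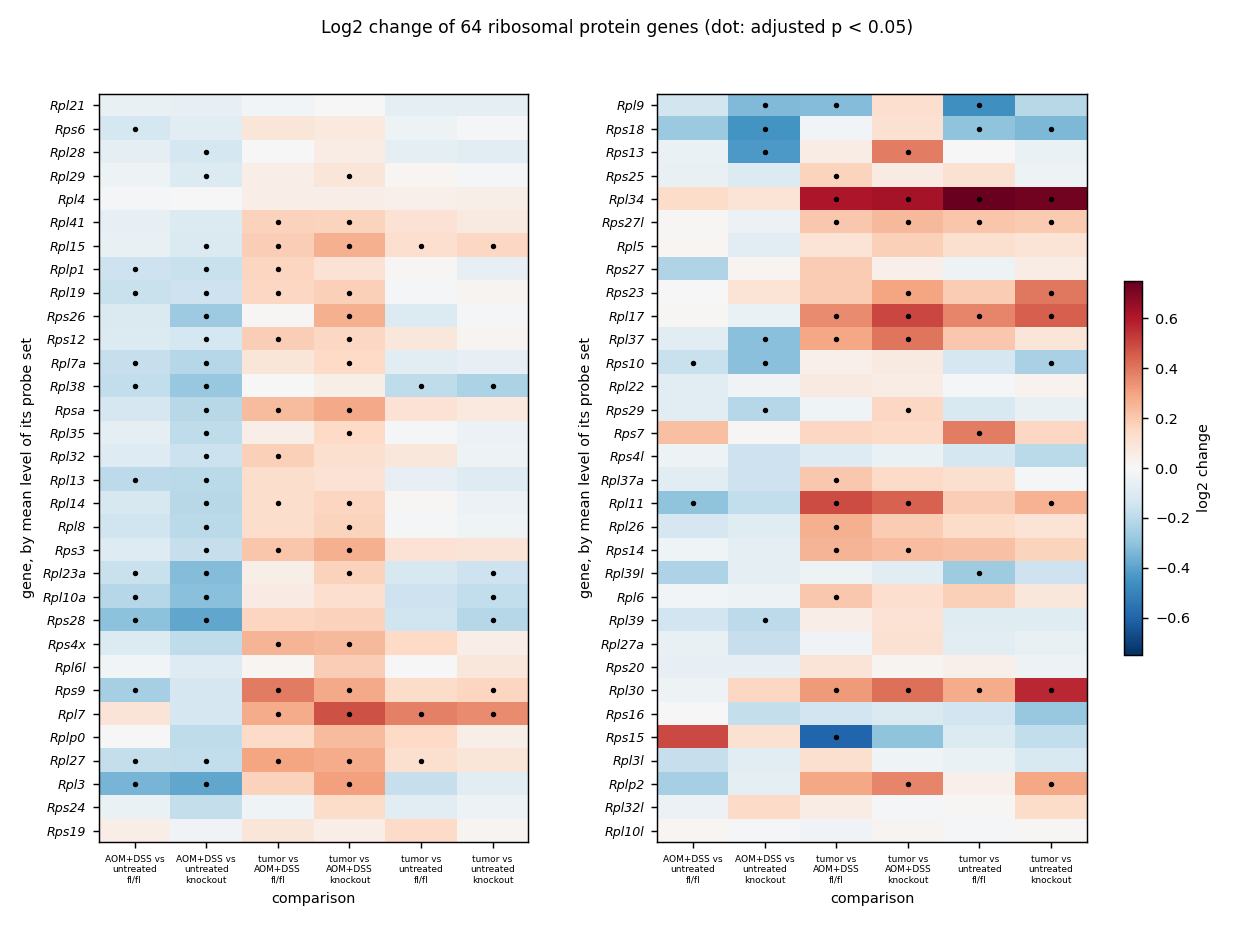
Log2 change of the 64 genes (rows, ordered by the mean level of their probe sets) in 6 comparisons (columns); colour gives the change from blue (lower) to red (higher), and dots mark an adjusted p under 0.05 by limma. The bright genes in the left panel are mostly blue in the first 2 columns and red in the next 2, and Rpl34 in the right panel is the darkest red in tumors.

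Immune cell markers moved in the same comparison. The mean of 9 B cell markers rose from 6.38 ± 0.58 (SD, n = 10) to 7.34 ± 0.66 in fl/fl colon and from 6.22 ± 0.46 to 7.98 ± 0.23 in knockout colon, and 8 and 9 of the 9 genes were called higher. The mean of 9 T cell markers went from 6.25 to 6.90 and from 6.31 to 7.25, and 9 of 10 neutrophil and 11 of 12 macrophage markers were called higher in each genotype. With the B cell and T cell means as covariates, 0 of 64 members were called in either genotype. The median change was then -0.10 in fl/fl and -0.12 in knockout mice, close to the values without covariates, while the median SE of a member went from 0.074 to 0.099 and 0.124. The mean of 13 markers of squamous epithelium, which lines the anal canal, was 6.02 and 6.00 in untreated and 7.62 and 7.53 in treated groups. With it as a covariate 9 members fell in fl/fl mice. Smooth muscle, at 11.27 and 11.30 in untreated and 11.27 and 11.11 in treated groups, left 15 and 30 calls as a covariate. The share of all genes called in these fits is not given here, so the lost calls are no result about the members. The part of cell makeup in the fall was not tested beyond these fits.

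Against AOM- and DSS-treated colon, most of the members called in tumors were higher, and many members were not called. In fl/fl mice 24 of 64 rose and 2 fell, where 21.0% of all genes rose and 20.2% fell. In knockout mice 29 of 64 rose and 0 fell, where 21.5% rose and 21.4% fell. The median change was 0.13 in fl/fl and 0.15 in knockout mice, against 0.02 and 0.00 over all genes. Among the 1470 genes above a level of 10, the median was -0.05 and -0.04, whereas the 31 bright members had medians of 0.13 and 0.16, with 13 and 18 called higher. This comparison shares its AOM and DSS arrays with the one above, so the 2 are not independent, and the values of each are given side by side.

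Rpl27, a large-subunit protein, separated the groups completely. Its level ran from 10.51 to 10.63 (median 10.60, n = 8) in fl/fl tumors and from 10.09 to 10.50 (median 10.32) in treated fl/fl colon. In knockout mice it ran from 10.45 to 10.75 (median 10.52, n = 9) in tumors and from 10.17 to 10.43 (median 10.30) in treated colon. Every tumor was above every treated colon of its genotype, and Rpl27 rose by 0.30 (SE 0.05, adjusted p = 3.9e-07 by limma) and 0.28 (SE 0.05, adjusted p = 7.93e-07).

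Rpl15, which sits at the core of the large subunit, did the same. Tumors ran from 12.42 to 12.62 (median 12.49) in fl/fl and from 12.44 to 12.69 (median 12.54) in knockout mice, and treated colon from 12.14 to 12.41 (median 12.33) and from 12.20 to 12.39 (median 12.28). No tumor overlapped with the treated colon of its genotype. The rise was 0.19 (SE 0.04, adjusted p = 0.000194 by limma) and 0.27 (SE 0.04, adjusted p = 1.1e-07). Groups without overlap were found for 2 members in fl/fl mice (5.61% of all genes did so upwards) and for 5 in knockout mice (7.46% of all genes), the others being Rpl7, Rpl11 and Rpl17. With 2 and 5 of 64, the members lay near these shares, so the separation is no result about the set.

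Rpl34, a small large-subunit protein, had the largest rise. Its level was 8.21 to 8.85 (median 8.64) in fl/fl tumors against 7.88 to 8.23 (median 8.01) in treated fl/fl colon, and 8.20 to 9.25 (median 8.67) in knockout tumors against 7.64 to 8.57 (median 7.97) in treated knockout colon. Of the tumors, 7 of 8 and 6 of 9 were above every treated colon of their genotype. The change was 0.60 (SE 0.11, 1.52-fold, adjusted p = 9.88e-06 by limma) and 0.62 (SE 0.11, 1.54-fold, adjusted p = 2.83e-06).

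Rpl11, which with Rpl5 and 5S RNA binds Mdm2 when ribosome assembly is disturbed, rose by 0.49 (SE 0.09, adjusted p = 3.45e-06 by limma) and 0.44 (SE 0.08, adjusted p = 1.1e-05). Its partner Rpl5 changed by 0.10 (SE 0.10) and 0.18 (SE 0.10), which did not pass (adjusted p = 0.479 and 0.145). Rps9, a small-subunit assembly protein, rose by 0.39 (SE 0.07) and 0.29 (SE 0.07), and Rps3, at the mRNA entry, by 0.21 (SE 0.05) and 0.27 (SE 0.05). Rpsa, the small-subunit protein also known as the laminin receptor, rose by 0.24 (SE 0.07) and 0.28 (SE 0.07). In all 18 members rose in both genotypes, namely Rpl7, Rpl11, Rpl14, Rpl15, Rpl17, Rpl19, Rpl27, Rpl30, Rpl34, Rpl37, Rpl41, Rps3, Rps4x, Rps9, Rps12, Rps14, Rps27l and Rpsa. The signs were the same in 55 of 64, and here too no share over all genes is given for both genotypes.

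The 2 members that fell in fl/fl tumors were Rps15 and Rpl9. Rps15, near the decoding centre, ran from 3.93 to 5.61 (median 4.90) in fl/fl tumors and from 4.74 to 6.31 (median 5.42) in treated colon, a range that overlapped widely, and its change of -0.60 (SE 0.24, adjusted p = 0.0384 by limma) came with the largest spread of all members. Rpl9, at the base of the stalk, changed by -0.32 (SE 0.13, adjusted p = 0.0433), and by 0.13 (SE 0.13) in knockout mice. A second probe set of Rpl9, at a mean level of 4.65, went the other way in fl/fl mice, at 0.26, and was at 0.14 in knockout mice. The calls of Rps15 and Rpl9 were lost when only the compared groups entered the fit, with 17 members called higher. The share of all genes called in that fit is not given here, so the smaller count is no result about the members. Rps13 and Rps26, which lines the mRNA exit, rose in knockout mice at 0.38 (SE 0.13) and 0.27 (SE 0.06), with 0.05 and 0.01 in fl/fl mice.

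**Figure D2:**
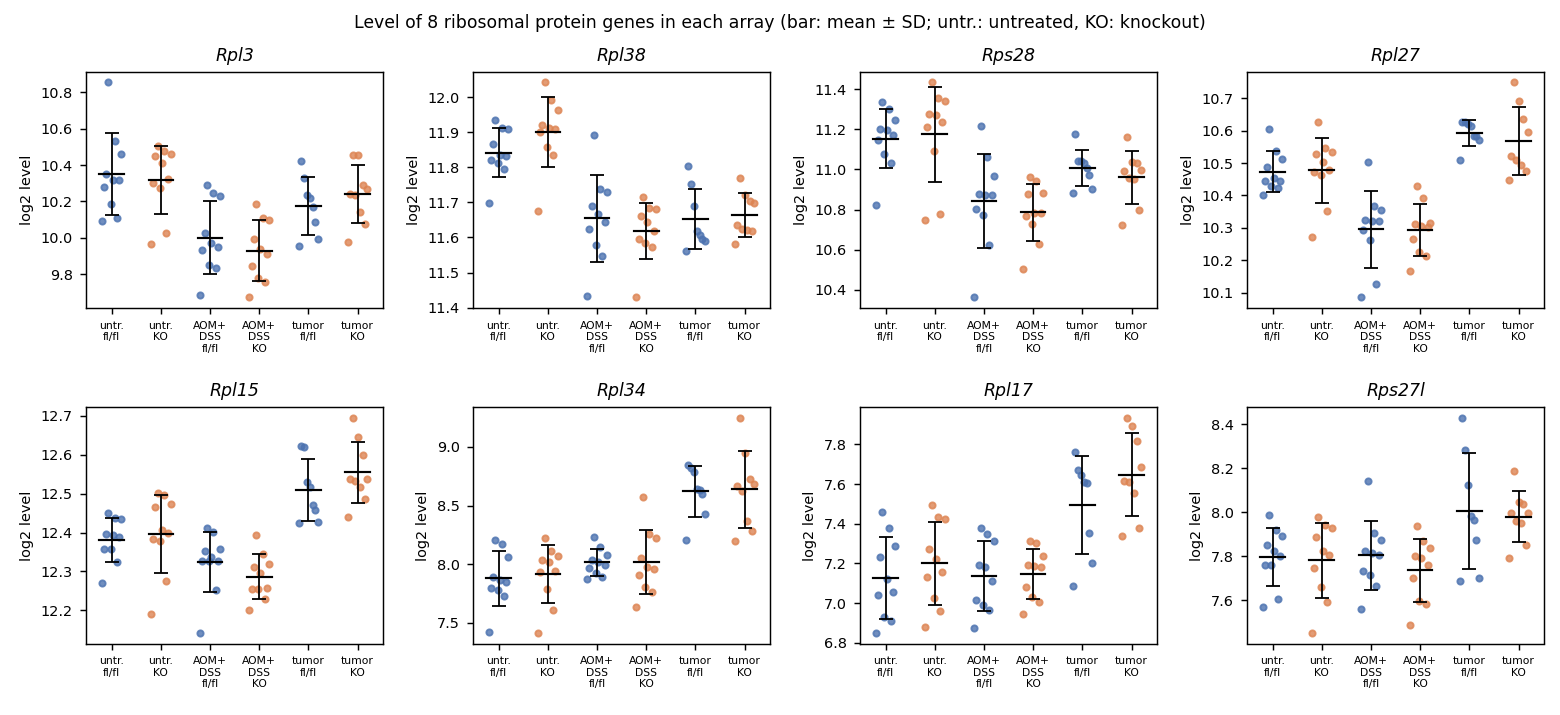
Log2 level (y axis) of 8 genes in each of the 57 arrays (points), by group (x axis); long bars give the mean and whiskers the SD. Rpl3, Rpl38 and Rps28 have lower means after AOM and DSS than in untreated colon of the same genotype, Rpl27 tumors lie above all treated colon of their genotype, and Rpl34 and Rpl17 have their highest medians in the 2 tumor groups.

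Smooth muscle and colonocyte signals were lower in these tumors, as given above, and 12 of 12 smooth muscle and 10 of 12 colonocyte markers fell in each genotype. With the smooth muscle mean as a covariate, 0 of 64 members were called in either genotype and the median change was 0.05 and 0.08. The median SE of a member went from 0.079 to 0.157 and from 0.076 to 0.153. With the B cell and T cell means as covariates, 9 and 11 members were called. The proliferation markers rose in tumors as well, by a median of 0.75 and 0.70, with 11 of 11 called in each genotype. The share of all genes called in the fits with covariates is not given here, so the lost calls are no result about the members. How much of the members' rise goes with tissue makeup was not tested further.

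Set against untreated colon, tumors showed few changes among the members. In fl/fl mice 8 rose and 4 fell, where 22.9% of all genes rose and 22.5% fell, and in knockout mice 10 rose and 6 fell, where 23.6% rose and 23.7% fell. In either direction this is 12 of 64 members beside 45.4% of all genes in fl/fl, and 16 of 64 beside 47.3% in knockout mice. The median change of the members was 0.01 in fl/fl and -0.01 in knockout mice. This split moved with the scaling: after a second quantile normalization 21 rose and 5 fell in fl/fl and 18 rose and 3 fell in knockout mice. With every array shifted to 1 median 14 rose and 4 fell in fl/fl mice. The shares of all genes under these scalings are not given here.

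Rpl34 again stood highest. Untreated fl/fl colon ran from 7.42 to 8.21 (median 7.86) and untreated knockout colon from 7.42 to 8.23 (median 7.98), so that all 8 fl/fl tumors and 8 of 9 knockout tumors lay above every untreated colon of their genotype. The rise was 0.74 (SE 0.11, 1.67-fold, adjusted p = 1.19e-07 by limma) and 0.72 (SE 0.11, 1.65-fold, adjusted p = 8.95e-08). It was the 1 member whose groups did not overlap in fl/fl mice, where 8.98% of all genes were without overlap upwards. In knockout mice 0 members were without overlap, against 10.0% of all genes.

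Rpl17 ran from 6.85 to 7.46 (median 7.09) in untreated fl/fl colon and from 7.08 to 7.76 (median 7.61) in fl/fl tumors. In knockout mice it ran from 6.88 to 7.50 (median 7.19) to 7.34 to 7.93 (median 7.62). The groups overlapped, with 5 of 8 and 7 of 9 tumors above all untreated arrays. Rpl17, which lines the peptide exit, rose by 0.37 (SE 0.09, adjusted p = 0.000729 by limma) and 0.45 (SE 0.09, adjusted p = 2.35e-05).

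Rpl7, Rpl15, Rpl30 and Rps27l also rose in both genotypes against untreated colon. Rpl7, a large-subunit protein, rose by 0.38 (SE 0.11) and 0.35 (SE 0.11), and Rpl15 by 0.13 (SE 0.04) and 0.16 (SE 0.04). Rpl30, whose yeast counterpart binds its own transcript, rose by 0.28 (SE 0.12, adjusted p = 0.049 by limma) and 0.57 (SE 0.12, adjusted p = 3.23e-05). Without untreated knockout replicate 2 the first of these calls was lost at the same change of 0.28. Rps7 rose in fl/fl tumors by 0.38 (SE 0.10) and was at 0.16 (SE 0.10) in knockout tumors, and Rps23, at the decoding centre, rose in knockout tumors by 0.40 (SE 0.09) and was at 0.19 (SE 0.09) in fl/fl tumors.

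Rpl38 and Rps18 fell in both genotypes against untreated colon. Rpl38 ran from 11.56 to 11.80 (median 11.61) in fl/fl tumors and from 11.58 to 11.77 (median 11.63) in knockout tumors. It fell by 0.19 (SE 0.05, adjusted p = 0.000636 by limma) and 0.24 (SE 0.05, adjusted p = 1.29e-05), and its tumors did not differ in a called way from treated colon, at 0.00 and 0.05. Rps18, of the small-subunit head, went from 8.57 to 9.52 (median 8.79) in untreated to 8.32 to 8.80 (median 8.56) in tumor arrays of fl/fl mice, and from 8.70 to 9.51 (median 8.85) to 8.40 to 8.77 (median 8.67) in knockout mice. It fell by 0.30 (SE 0.11, adjusted p = 0.0255) and 0.34 (SE 0.11, adjusted p = 0.00889). Other probe sets of Rps18 differed: one at a mean level of 5.43 changed by -0.06 in fl/fl and -0.04 in knockout mice, and one at 5.36 by 0.30 and 0.13. Rpl9 in fl/fl tumors was lower by 0.46 (SE 0.13), but its second probe set, at a mean level of 4.65, changed by 0.07. In knockout tumors Rps10, Rpl10a, Rpl23a and Rps28 were lower by 0.24 (SE 0.06), 0.19 (SE 0.07), 0.15 (SE 0.06) and 0.21 (SE 0.08). A second probe set of Rps28, at a mean level of 5.58, changed by 0.25 in knockout tumors. All member calls of this comparison were lost with the smooth muscle mean as a covariate. That mean was itself lower in tumors than in untreated colon, as given above. The share of all genes called in that fit is not given here, so the lost calls are no result about the members.

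Promoter sequences are given for members that went opposite ways in tumors, since a run of pyrimidines at the start is the known feature of these genes. RefSeq windows (build GRCm38.p6) were found for 49 of the 64 members. The lines give 30 bases before and 20 bases from the annotated start, read 5′ to 3′ on the gene's strand, with the longest run of at least 6 C or T that reaches past position -10 in capitals. Rpl15, Rpl34 and Rps27l were higher in tumors than in untreated colon of both genotypes, and Rpl38 and Rps18 were lower. Rpl19 and Rpl27 were lower after AOM and DSS and higher in tumors than in treated colon. Rpl7, Rpl17 and Rpl30 were also higher in tumors than in untreated colon of both genotypes, but their windows are not printed here.
Rpl15: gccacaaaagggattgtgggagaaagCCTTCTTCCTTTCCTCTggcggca
Rpl34: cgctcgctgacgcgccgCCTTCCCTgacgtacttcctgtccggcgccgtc
Rps27l: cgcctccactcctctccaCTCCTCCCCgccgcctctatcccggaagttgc
Rpl38: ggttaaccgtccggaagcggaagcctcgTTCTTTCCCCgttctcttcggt
Rps18: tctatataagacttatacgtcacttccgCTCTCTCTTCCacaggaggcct
Rpl19: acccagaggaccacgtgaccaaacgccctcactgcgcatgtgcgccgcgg
Rpl27: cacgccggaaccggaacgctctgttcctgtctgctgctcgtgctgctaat

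These windows are chr14:18270967-18271016 on the minus strand for Rpl15, chr3:130730379-130730428 on the minus strand for Rpl34 and chr9:66946056-66946105 on the plus strand for Rps27l. They are chr11:114668550-114668599 on the plus strand for Rpl38, chr17:33955646-33955695 on the minus strand for Rps18, chr11:98026680-98026729 on the plus strand for Rpl19 and chr11:101442215-101442264 on the plus strand for Rpl27. The run is 17 bases long in Rpl15, from position -4, and 10 and 11 bases in Rpl38 and Rps18, each from position -2. Rpl15, which rose, and Rpl38 and Rps18, which fell, thus carry it across the start. In Rpl34 and Rps27l the longest run begins earlier, at -13 and -12, and the Rpl34 line also holds cttcct, a run of 6, just after the start. The windows of Rpl19 and Rpl27 hold none at this annotated start. A run of at least 6 C or T wholly within 10 bases before to 20 bases after the start, on the gene's strand, was found in 32 of the members' 58 windows (55.2%) and in 28.7% of all 32851 windows of the table. A C followed by 4 C or T exactly at the start, the classic TOP form, was found in 11 (19.0%) against 2.51%. CCGGAAG, the core of sites for ETS factors such as GABP, searched on both strands over the whole 300 bases, was found in 22 (37.9%) against 8.86%. TATAAA in the 50 bases before the start, on the gene's strand, was found in 0 against 2.63%. A match to CCGGAAG on the other strand can overlap a pyrimidine run, and the counts are a description of letters only.

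Of the 7 extra copies, Rps27l and Rpl39l were called in at least 1 comparison. Rps27l, a p53 target that differs from Rps27 by a few residues, rose in tumors, from 7.57 to 7.99 (median 7.81) in untreated fl/fl colon to 7.69 to 8.43 (median 7.97) in fl/fl tumors, with overlap. Against untreated colon it rose by 0.21 (SE 0.08, adjusted p = 0.0256 by limma) and 0.20 (SE 0.08, adjusted p = 0.0286), and against treated colon by 0.20 (SE 0.08) and 0.24 (SE 0.08). With the smooth muscle mean as a covariate, Rps27l was called in none of these 4 comparisons. Its sign turned in 3 of them, to small values given below, and the SEs of members grew in that fit. The usual copy Rps27 was not called in any comparison, with -0.04 (SE 0.11) and 0.06 (SE 0.10) against untreated colon.

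Rpl39l, the germ-cell copy of Rpl39, fell in fl/fl tumors against untreated colon by 0.27 (SE 0.09, adjusted p = 0.0165 by limma) and was at -0.16 (SE 0.09) in knockout tumors, while Rpl39 was at -0.09 (SE 0.07) in each. Rpl3l, the copy of skeletal and heart muscle, Rpl10l, of the testis, Rpl32l, Rpl6l and Rps4l were called in none of the 6 comparisons, although their usual copies Rpl3, Rpl32, Rpl6 and Rps4x each were in at least 1. Rpl6l and Rps4l are annotated as a pseudogene and a transcribed pseudogene. For Rpl10l, at a mean level of 3.89, changes stayed between -0.03 and 0.02.

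Rplp0, Rplp1 and Rplp2 form the stalk, which recruits translation factors. Rplp1 fell after AOM and DSS by 0.15 (SE 0.05) and 0.16 (SE 0.05) and rose in fl/fl tumors against treated colon by 0.16 (SE 0.06), with 0.11 (SE 0.06) in knockout tumors. Its partner Rplp2, with 1 of the dimmest probe sets, was at -0.25 (SE 0.12) and -0.08 (SE 0.12) after AOM and DSS, which did not pass. Rplp2 rose in knockout tumors against treated colon by 0.36 (SE 0.12) and against untreated colon by 0.29 (SE 0.12), with 0.29 (SE 0.12) and 0.04 (SE 0.12) in fl/fl tumors. Rplp0, which carries both, was called in no comparison, with changes from -0.19 to 0.24 and an SE of 0.11 to 0.12. Rps6 fell in fl/fl colon after AOM and DSS by 0.13 (SE 0.04, adjusted p = 0.00684 by limma) and was at -0.09 (SE 0.04, adjusted p = 0.0711) in knockout colon.

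Over the 6 comparisons, 16 members were never called, including Rpl4, Rpl5, Rpl21, Rpl22, Rplp0, Rps16, Rps19, Rps20 and Rps24, and 0 were called in all. Rpl15 and Rpl27 were called in 5. No share over all genes is given for calls across the comparisons, so these counts only describe the members. For Rpl21 the changes stayed between -0.07 and -0.01 with an SE of 0.03.

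**Figure D3:**
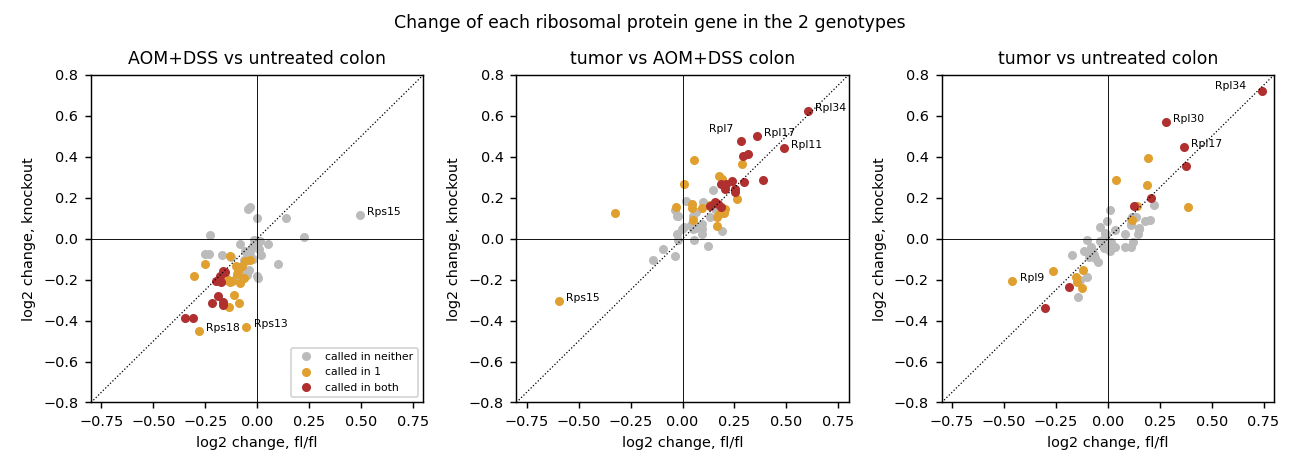
Log2 change in fl/fl mice (x axis) against knockout mice (y axis) for the 64 genes (points) in 3 comparisons; colours mark genes called in neither, 1 or both genotypes, and the dotted line marks equal change. Most points lie at the lower left after AOM and DSS and at the upper right for tumors against treated colon, with Rps15 apart.

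Loss of the insulin receptor in the epithelium was compared within each condition. Of the 64 members, 0 were called between knockout and fl/fl mice in untreated colon, after AOM and DSS or in tumors (limma), where 0.00451%, 0.541% and 0.00902% of all genes were. At an unadjusted p under 0.05 there were 3, 3 and 1 members, where 5.02%, 13.1% and 4.46% of all genes passed. The members with the smallest p were Rps25 at 0.12 (95% interval 0.02 to 0.21) in untreated colon, Rps29 at -0.14 (95% interval -0.25 to -0.03) after AOM and DSS and Rpl30 at 0.26 (95% interval 0.01 to 0.50) in tumors. Next in order were Rps7 (0.21, SE 0.10) and Rpl14 (0.10, SE 0.05) in untreated colon, Rps26 (-0.15, SE 0.06) and Rpl9 (-0.28, SE 0.13) after AOM and DSS, and Rps26 (0.11, SE 0.06) and Rpl17 (0.16, SE 0.09) in tumors. The median 95% interval reached 0.15, 0.15 and 0.16 to each side, so differences smaller than this could not be told from none for a typical member. In size, 62, 62 and 63 of the 64 differences were within 0.2, and the largest were Rps13 at 0.22, Rpl9 at -0.28 and Rpl30 at 0.26.

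The response itself was also compared between genotypes by an interaction term. For the AOM and DSS response 0 members and 0% of all genes were called, with 2 members and 6.09% of all genes at an unadjusted p under 0.05. For tumors against treated colon 0 members and 0% of all genes were called, with 3 members and 6.63% of all genes at that level. Rps13 had the smallest p for the first, at -0.38 (SE 0.18, adjusted p = 0.804 by limma), and Rps26 for the second, at 0.26 (SE 0.09, adjusted p = 0.532). They were followed by Rpl23a and Rps26, each at -0.16 (SE 0.08), for the first and by Rpl9 at 0.45 (SE 0.18) and Rps29 at 0.19 (SE 0.08) for the second. The larger number of members that fell after AOM and DSS in knockout mice therefore stood without a called difference in response.

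Within groups the bright members moved together. After each array was centred on its group, the median correlation of a pair of members over the 57 arrays was 0.19 for all 64 and 0.42 for the 31 bright ones, with 78.5% and 94.0% of pairs positive. These arrays share normalization and tissue makeup, so this is a description. Rpl13, Rpl8, Rpl38 and Rpsa followed the bright members most closely, with a mean r of 0.54, 0.53, 0.52 and 0.51, and Rpl5, at -0.19, and Rpl3l, at -0.12, least. The mean of all members per array was 9.06 ± 0.06 (SD, n = 10) and 9.09 ± 0.08 in untreated, 8.97 ± 0.07 and 8.95 ± 0.06 in treated and 9.09 ± 0.06 (n = 8) and 9.11 ± 0.10 (n = 9) in tumor groups, fl/fl first.

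Other parts of the translation machinery were listed for comparison. Of 22 measured translation factors whose mRNAs also begin with a TOP motif, 9 fell and 2 rose after AOM and DSS in fl/fl mice (10.5% of all genes fell and 12.2% rose), and 9 fell and 4 rose in knockout mice (14.2% and 16.0%). In tumors against treated colon 11 rose and 1 fell in fl/fl mice (21.0% of all genes rose and 20.2% fell), and 12 rose and 0 fell in knockout mice (21.5% and 21.4%). Eef1d, of the elongation factor that recharges eEF1A, fell after AOM and DSS by 0.25 (SE 0.06) and 0.31 (SE 0.06), and Pabpc1, the poly(A)-binding protein, rose in tumors against treated colon by 0.57 (SE 0.06) and 0.60 (SE 0.06). Fau, also among these 22, encodes a ubiquitin-like protein fused to the ribosomal protein eS30 and lies outside the naming rule, and it fell after AOM and DSS by 0.16 (SE 0.06) and 0.29 (SE 0.06). Within groups, the mean of these 22 factors correlated with the member mean at 0.72.

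The 71 mitochondrial ribosomal proteins build a separate ribosome for mitochondrial messages. In fl/fl mice 9 fell and 0 rose after AOM and DSS, and 15 rose and 5 fell in tumors against treated colon, so that the 9 and the 15 lay near the shares of 10.5% lower and 21.0% higher over all genes. In knockout mice 32 fell and 1 rose after AOM and DSS, where 14.2% of all genes fell, and 33 rose and 0 fell in tumors against treated colon, where 21.5% rose. Their medians were -0.07 and -0.15 after AOM and DSS and 0.07 and 0.17 in tumors, and their within-group correlation with the member mean was 0.75. Mrpl2 fell after AOM and DSS by 0.28 (SE 0.06) and 0.33 (SE 0.06).

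Of 60 measured genes that assemble ribosomes, 7 rose and 4 fell after AOM and DSS in fl/fl mice, where 12.2% of all genes rose and 10.5% fell. In knockout mice 18 rose and 5 fell, where 16.0% rose and 14.2% fell. In tumors 53 and 57 of 60 rose against treated colon (21.0% and 21.5% of all genes) and 54 and 54 against untreated colon (22.9% and 23.6%), with 2 falling in each. The median change against untreated colon was 0.45 and 0.49, where that of the ribosomal proteins was 0.01 and -0.01. Ddx21, a nucleolar helicase, rose against untreated colon by 0.74 (SE 0.06, adjusted p = 1.45e-15 by limma) and 0.91 (SE 0.06, adjusted p = 1.41e-19), Ltv1, which helps small-subunit export, by 1.04 (SE 0.09) and 1.24 (SE 0.08), and Nhp2, a box H/ACA protein, by 0.80 (SE 0.08) in fl/fl tumors. Of 24 subunits and factors of RNA polymerases I and III, which make ribosomal and transfer RNA, 13 rose and 2 fell in fl/fl tumors against untreated colon (22.9% and 22.5% of all genes), and 14 rose and 3 fell in knockout tumors (23.6% and 23.7%). Polr1a was higher by 0.60 (SE 0.07) and 0.64 (SE 0.07).

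**Figure D4:**
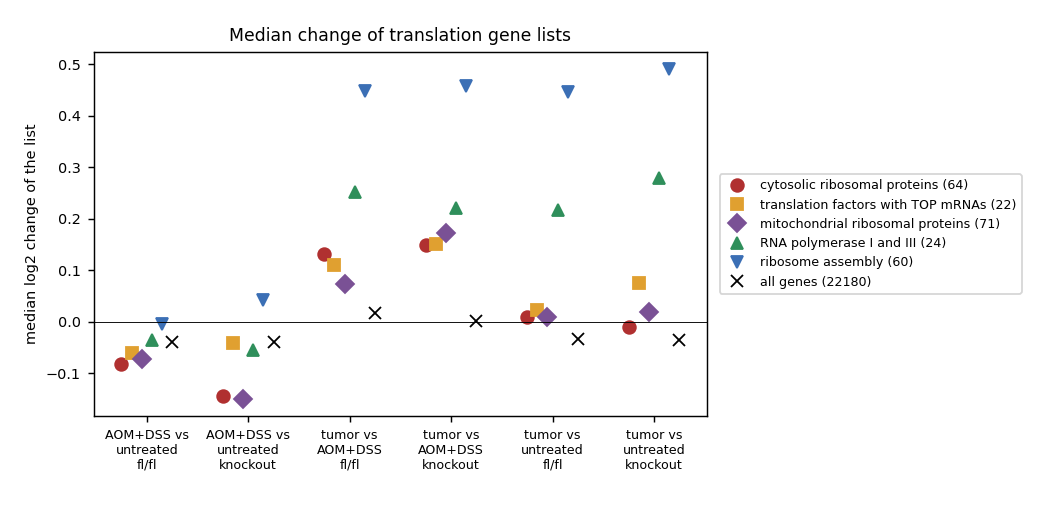
Median log2 change (y axis) of the ribosomal proteins, 4 other lists and all genes (symbols, number of genes in the legend) in 6 comparisons (x axis); no error is drawn, since genes are not replicates. The ribosomal proteins lie at 0.01 and -0.01 in tumors against untreated colon, where ribosome assembly lies at 0.45 and 0.49.

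Where a gene had several probe sets they did not always move alike. Of 23 members with distinct probe sets, 10 and 5 had sets of opposite sign after AOM and DSS, 8 and 2 in tumors against treated colon and 13 and 17 in tumors against untreated colon. For Rpl3, the probe set used changed by -0.17 and -0.08 in tumors against untreated colon, and another assigned to it, at a mean level of 8.13, by 0.76 and 0.92. For Rps9 a second probe set at 9.43 changed by -0.13 and -0.20, against 0.14 and 0.16 for the one used. For Rpl7 a second probe set changed by 0.28 and 0.24, beside 0.38 and 0.35 for the one used.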

How the data were processed

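RNA (250 ng of total RNA) was hybridised to 57 arrays in 6 groups, called biological replicates per the labels. The deposited table held log2 values that were background-corrected, quantile-normalised and summarised by RMA, per the submitters' processing notes; the version is not given in the sources used here. Of 41345 probe sets, 25335 were paired with genes, 23521 with 1 symbol and 1814 with several, and 16010 were unnamed. The brightest probe set stood for each of 22180 genes, 1082 of which had several. No further normalization was applied.

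A linear model with 6 groups (51 residual degrees of freedom) was fitted across all genes with limma 3.58.1 in R 4.3.3, with 2-sided tests, Benjamini-Hochberg adjustment and a threshold of 0.05. It was tested on simulated data. Figures and sequences used Python 3.11.15 and matplotlib 3.10.9. Members, comparison lists and markers were chosen with earlier results of these data known.

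Genes were named by rule: in each direction of a comparison, up to 6 members of lowest adjusted p, or the 3 smallest p where none passed, the extra copies with their usual copies, the 3 brightest, dimmest and most variable members, Rpl5, Rpl11, Rps6, Rpsa and the stalk proteins, and up to 4 genes of each other list. Genes outside it (Rpl4, Rpl13, Rpl8, Rpl37 and others in lists of calls, and second probe sets) were chosen after their values were seen. Alternatives covered scaling, probe set choice, gene filter, array weights, variance model, samples in the fit, a replicate block and marker covariates. Of 136 same-numbered pairs of arrays in different groups, 41 had residuals that correlated above 0.1 (median 0.050, range -0.331 to 0.330). Pairs with different numbers were not set beside them, so these values cannot say whether the numbers pair the samples. The number of arrays limits the precision.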

Additional observations from a re-analysis of the deposited data

Results flagged for a closer look

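In 96 group-by-measure tests of 16 measures, 6 samples stood far from the others of their group, where chance gives about 1 in 20. The mean of the TOP translation factors was 10.32 in untreated fl/fl replicate 4, and 10.46 to 10.52 in the others of that group. Rps9 was 10.03 in AOM and DSS fl/fl replicate 9, below 10.39 to 10.78 in the others. Rpl11 was 5.60 in AOM and DSS fl/fl replicate 8, below 5.95 to 6.21. Rpl38 was 11.43 in AOM and DSS knockout replicate 6, below 11.57 to 11.72. Rpl27 was 10.51 in fl/fl tumor replicate 4, below 10.57 to 10.63. Rps15, the most variable member, was 3.35 in knockout tumor replicate 5, below 4.61 to 5.57. No library recurred among these 6.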

How the results depend on the processing

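Over 12 alternatives, 57 of 72 counts of called members in the 6 comparisons with calls stayed within 1.5 times the reported count and 15 did not. The 5 comparisons that involve genotype gave 0 calls under each. Of the medians, 128 of 132 over all 11 comparisons moved by less than the spread between arrays. Shifting every array to 1 median gave 7 calls (1 higher, 6 lower) after AOM and DSS in fl/fl mice and 17 (15 higher, 2 lower) in fl/fl tumors against treated colon. A second quantile normalization gave 26 calls (21 higher, 5 lower) in fl/fl tumors against untreated colon, with a median of 0.087, and a median of 0.065 in knockout tumors. Fitting only the compared groups gave 17 calls in fl/fl tumors against treated colon. With the smooth muscle mean as a covariate all 4 tumor comparisons gave 0 calls, and the medians were 0.045 in fl/fl tumors against treated colon and -0.11 in knockout tumors against untreated colon. It also turned Rps27l to -0.021 and Rps25 to -0.035 in fl/fl tumors against treated colon, Rps27l to -0.014 and Rpl30 to -0.0065 in fl/fl and Rps27l to -0.049 in knockout tumors against untreated colon. The covariates below were chosen after seeing the data, as was leaving out untreated knockout replicate 2. With the B cell and T cell means, 0 and 0 members were called after AOM and DSS, 9 and 11 in tumors against treated and 5 and 10 against untreated colon, and Rps29 turned to -0.011 in knockout tumors against treated colon. With the squamous mean, 9 were called after AOM and DSS in fl/fl mice. Averaging a gene's probe sets turned Rps28 to 0.019 and Rps9 to -0.022 in knockout tumors against untreated colon. The cause of these shifts was not tested, and the SEs grew with the covariates. The share of all genes called under each alternative is not given here, so these counts do not single out the members. With the replicate number as a block, 15, 30, 25, 31, 14 and 16 members were called in the 6 comparisons, and 86 of 89 named calls held. Array weights, an intensity trend with robust variances and the filter to genes above the median level moved no count beyond 1.5 times. Arrays give no read depth, and 19 members had mean levels under 7, where signal over background limits what can be seen.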
